A study of Mus musculus with 12 samples.

Results

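Gli1 and Hhip are direct transcriptional targets of Hedgehog signalling, and their messenger RNA was followed here in the lungs of mouse embryos at embryonic day 12.5. They were chosen by gene symbol, as known targets in lung mesenchyme, with earlier results of these data known. They are 2 of the 31078 genes in the count table used. Both were tested. The study set Intu knockout lungs against wild-type lungs, and left lungs against right lungs. Its groups were Intu knockout left, Intu knockout right, wild-type left and wild-type right, with 3 libraries of bulk RNA each. All embryos had a C57BL/6 background and came from natural matings of parents that carried an Intu knockout allele. How the allele disrupts Intu is not stated in the labels, nor is it stated whether left and right lungs of one number came from one embryo.

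In the lung, the epithelium secretes the ligand Sonic hedgehog and the surrounding mesenchyme receives it. Without ligand, the receptor Ptch1 holds the membrane protein Smoothened in check, and in vertebrates the signal downstream of Smoothened runs through the primary cilium to the transcription factors Gli2 and Gli3. Gli1 is itself a zinc-finger transcription factor of this family, is switched on by the pathway and is widely used as its readout. Hhip is a membrane-anchored glycoprotein that binds Hedgehog ligands and limits signalling, so it is a negative feedback target. Intu belongs to the CPLANE complex, which is needed to build primary cilia.

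Gli1 (ENSMUSG00000025407) lies on the minus strand of chromosome 10, from 127329882 to 127341974 (GRCm38), and its counts cover 13 merged exons with 4995 bases. Hhip (ENSMUSG00000064325) lies on the minus strand of chromosome 8, from 79965851 to 80058006, and its counts cover 13 merged exons with 9076 bases. The GENCODE M21 annotation gives both genes the same ends, with 5 transcripts for Gli1 and 2 for Hhip. Exons of Arhgap9 and Gm47200, on the opposite strand, overlap Gli1 exons by 62 and 265 bases, and these genes held at most 49 and 2 counts per library. Gm27820, opposite Hhip, shares 175 exon bases with it and held 0 counts in every library. Gli1 held 1542 to 4217 counts per library and Hhip 969 to 2309, and whether reads were counted by strand is not given in the sources.

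The RefSeq promoter table held an entry for Hhip. The 250 bases before its annotated start are shown because proteins of the Gli family bind the motif GACCACCCA, which was searched in them. They are chr8:80058009-80058258 (GRCm38.p6), read on the minus strand, and the capitals mark the 1 run that comes within 2 mismatches of the motif.
Hhip: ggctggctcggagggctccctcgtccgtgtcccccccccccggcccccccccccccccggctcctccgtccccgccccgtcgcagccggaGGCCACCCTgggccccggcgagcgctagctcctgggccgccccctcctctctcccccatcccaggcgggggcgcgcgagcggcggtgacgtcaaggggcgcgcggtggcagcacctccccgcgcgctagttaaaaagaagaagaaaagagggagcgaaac
The motif was searched on both strands (GACCACCCA and TGGGTGGTC) over 250 bases before and 50 bases after the start. The Hhip window held 0 exact matches and 0 matches with 1 mismatch. Of 32851 promoters of this length, 0.253% held an exact match, 6.74% a match with at most 1 mismatch and 58.3% a match with at most 2 mismatches. The letters shown are therefore no closer to the motif than those of most promoters, and more distant sequence was not searched.

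The libraries held 10290103 to 10753386 counts on chromosomes 1 to 7, 10 and X and part of 8, and levels are in CPM, a gene's TMM-scaled share of those counts on the usual counts-per-million scale. Intu itself averaged 28.2 ± 1.83 CPM in knockout and 31.5 ± 2.12 CPM in wild-type libraries (SD, n = 6 each), a log2 difference of -0.16 (SE 0.06, adjusted p = 0.162 in edgeR's quasi-likelihood test). Counts summed over a gene would not show the loss of a few exons, if the allele is of that kind, so the genotypes were taken from the labels. Lung mesenchyme genes were present, among them Tbx5 and Tcf21, transcription factors of that tissue, and so were the epithelial genes Foxa2 and Shh.

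Gli1 fell in knockout lungs on both sides, to about the same share of its wild-type level. In left lungs Gli1 stood at 167.3, 185.5 and 176.2 CPM in the 3 knockout libraries, against 344.6, 363.3 and 394.4 CPM in the 3 wild-type libraries. In right lungs it stood at 150.6, 160.6 and 180.2 CPM in knockout and at 348.5, 351.0 and 378.5 CPM in wild-type libraries. The genotypes did not overlap on either side: the lowest wild-type library was 1.86 times the highest knockout library. On the log2 scale the difference was -1.06 on the left (SE 0.07, adjusted p = 2.29e-06) and -1.13 on the right (SE 0.07, adjusted p = 9.88e-07) in edgeR's quasi-likelihood test over 9519 genes. Over both sides it was -1.10 (SE 0.05, adjusted p = 1.54e-08), which leaves 46.8% of the wild-type level (95% interval 43.3% to 50.5%). In bulk lung, fewer cells of a type and less RNA per cell cannot be told apart.

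Hhip fell as well, with a wider spread. In left lungs Hhip stood at 106.8, 127.9 and 120.2 CPM in knockout libraries, against 210.9, 168.9 and 215.9 CPM in wild-type libraries. In right lungs it stood at 94.6, 127.9 and 98.7 CPM in knockout and at 219.2, 193.9 and 208.7 CPM in wild-type libraries. The genotypes again did not overlap, but the gap was narrower, with the lowest wild-type library 1.32 times the highest knockout library. Those nearest libraries both carried the number 2: knockout number 2 was the highest and wild-type number 2 the lowest of its group on both sides. The log2 difference was -0.75 on the left (SE 0.12, adjusted p = 0.00682) and -0.95 on the right (SE 0.12, adjusted p = 0.00067) in edgeR's test. With both sides together it was -0.85 (SE 0.08, adjusted p = 3.81e-05), which leaves 55.5% of the wild-type level (95% interval 49.1% to 62.7%).

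**Figure D1:**
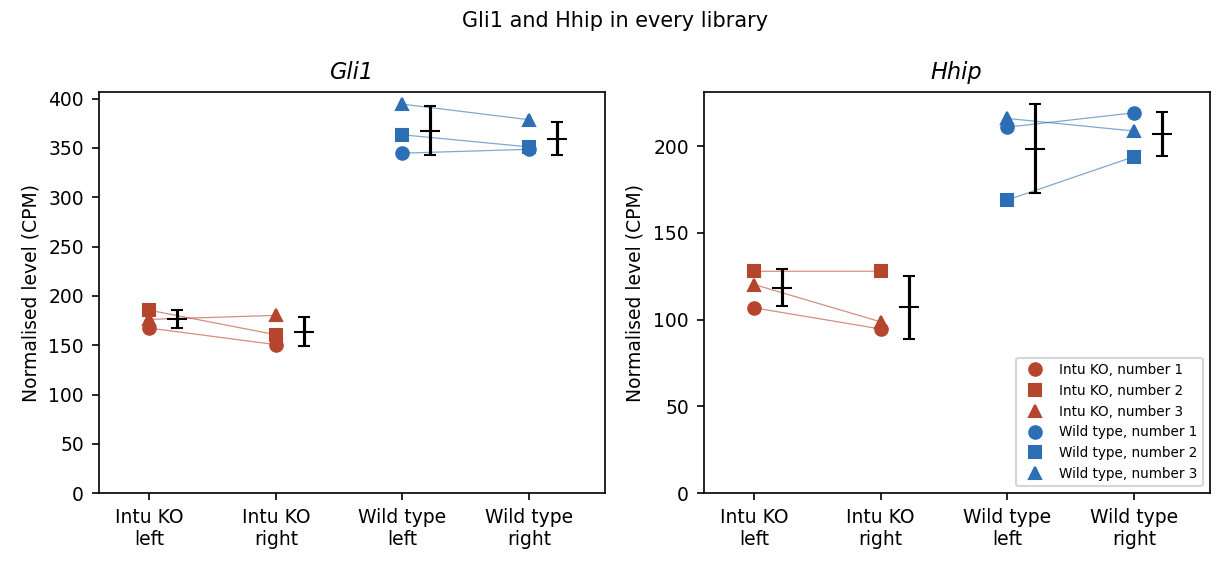
Normalised level (CPM, from 0) of Gli1 and Hhip in each library by genotype and side. Points are libraries, with one symbol per number and a line joining the left and right library of that number, and black bars give the mean and SD of 3 libraries. Every Gli1 point of the knockout lies at or under 185.5 CPM and every wild-type point at or over 344.6 CPM, and for Hhip these limits are 127.9 and 168.9 CPM.

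Both members were called lower in a background of few called genes. Of the 9519 genes tested, 1.18% were called in either direction on the left, 1.51% on the right and 5.70% over both sides, at an adjusted p under 0.05. Genes called lower made up 0.872% on the left, 1.18% on the right and 3.62% over both, and genes called higher 0.305%, 0.336% and 2.08%. These shares depended on scaling: with libraries scaled to summed mesenchyme markers, 1424 genes were called lower and 132 higher over both sides, against 345 and 198, so that 91.5% of calls were lower, against 63.5%. On the left 88.0% of calls were then lower, against 74.1%, and on the right 89.5%, against 77.8%. Genes that were lower with no overlap between the genotypes made up 8.26% on the left, 9.71% on the right and 2.65% over both sides. By p, Gli1 ranked 4 and Hhip 17 of 9519 for both sides. By size of the difference they were less extreme: of the 345 genes called lower, 64 had a larger fall than Gli1 and 101 a larger one than Hhip. Both were among the more abundant genes, with 90.9% of tested genes below the mean CPM of Gli1 and 81.9% below that of Hhip. The test of both sides, with its intervals, ranks and counts of calls, takes 12 libraries as independent. Left and right libraries of one number, however, deviated together. With their counts summed, 141 genes were called, against 543. Gli1 and Hhip were still among them, with adjusted p = 7.84e-05 and 0.00595 in edgeR.

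**Figure D2:**
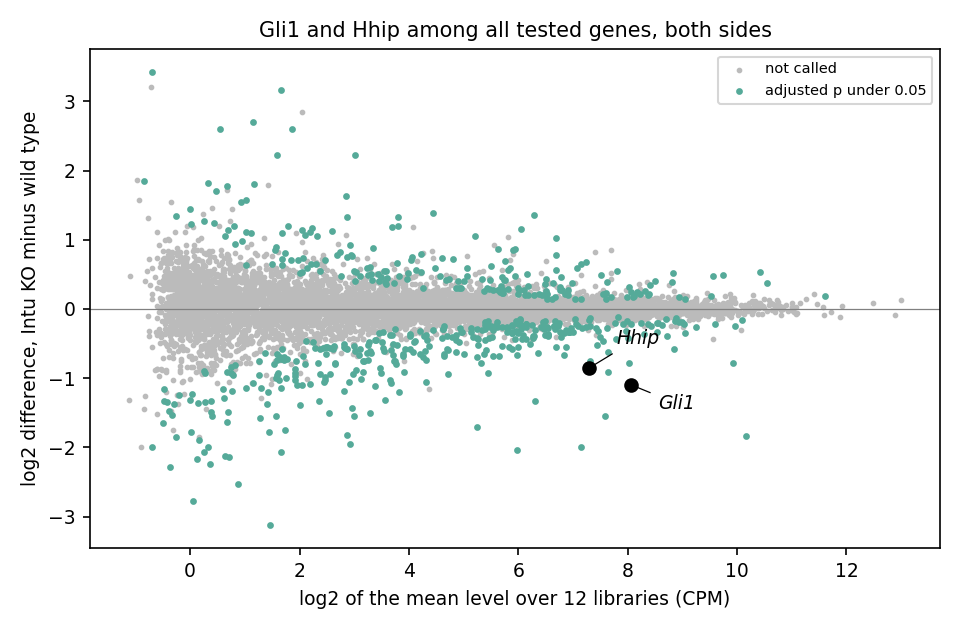
Log2 difference between Intu knockout and wild type over both sides against log2 of the mean level (CPM) for the 9519 tested genes. Green points are genes with an adjusted p under 0.05, and black points are Gli1, at a difference of -1.10 and a mean of 266.7 CPM, and Hhip, at -0.85 and 157.8 CPM.

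The members were then compared with each other. Per length of exon (RPKM, the CPM divided by the exon length in kilobases), Gli1 stood at 34.0 ± 2.62 RPKM in knockout and 72.7 ± 3.92 RPKM in wild-type libraries, and Hhip at 12.4 ± 1.62 RPKM in knockout and 22.4 ± 2.07 RPKM in wild-type libraries (SD, n = 6 each). Gli1 was thus the more abundant transcript in every library, by 2.28 to 3.32 times in knockout and 2.89 to 3.91 times in wild-type libraries. The log2 ratio of Gli1 to Hhip counts, with left and right summed, averaged 0.60 ± 0.14 in knockout and 0.84 ± 0.15 in wild type (SD, n = 3 each). The difference of -0.24, a larger fall of Gli1, did not pass a two-sided exact permutation test (p = 0.2, where 3 against 3 can reach no less than 0.1). In left lungs alone the ratio was lower in all 3 knockout libraries (0.54 to 0.65) than in all 3 wild-type libraries (0.71 to 1.10), with exact p = 0.1. In right lungs the ranges overlapped, at 0.33 to 0.87 in knockout and 0.67 to 0.86 in wild type (exact permutation p = 0.7).

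Left and right lungs did not differ detectably in either gene. In knockout lungs the left minus right difference of Gli1 was 0.11 on the log2 scale (95% interval -0.05 to 0.26), and it was higher on the left in 2 of 3 numbers. In wild-type lungs it was 0.03 (95% interval -0.12 to 0.18). Hhip stood at 0.14 in knockout (95% interval -0.11 to 0.39) and at -0.06 in wild-type lungs (95% interval -0.30 to 0.18). These intervals come from the unpaired fit, which takes the 12 libraries as independent. Each adjusted p was 1.0 in edgeR's test, in which 0 of 9519 genes (0%) were called in knockout and 0.0105% in wild type. At unadjusted p under 0.05 there were 358 genes in knockout and 249 in wild type, and DESeq2 called 4 and 11 genes. With left and right lungs of one number paired as a replicate block, edgeR called 43 genes in knockout and 63 in wild type, and neither member was among them (smallest adjusted p = 0.428, for Hhip in knockout). The order of mean level of Gli1, low to high, was knockout right (163.8 CPM), knockout left (176.3 CPM), wild-type right (359.4 CPM) and wild-type left (367.4 CPM). For Hhip it was knockout right (107.1 CPM), knockout left (118.3 CPM), wild-type left (198.6 CPM) and wild-type right (207.2 CPM). Neighbours of one genotype in these orders did not differ beyond their spread.

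Whether the knockout acted unequally on the sides was tested as an interaction. The left effect minus the right effect was 0.07 for Gli1 (95% interval -0.14 to 0.29) and 0.21 for Hhip (95% interval -0.14 to 0.55), on the log2 scale. Neither was called. In that edgeR test 0 of 9519 genes (0%) were called, with 124 at an unadjusted p under 0.05. DESeq2 called 0 and the paired edgeR fit 2, neither of them a member.

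**Figure D3:**
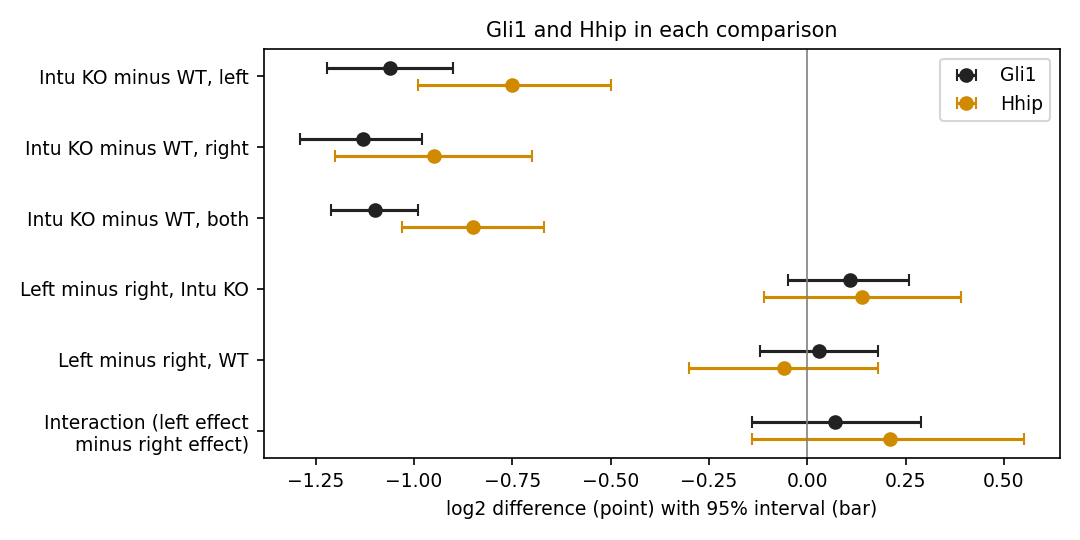
Log2 difference of Gli1 (black) and Hhip (orange) in each comparison, as a point with its 95% interval as a bar. The intervals of the 3 knockout comparisons all lie below 0, and those of left against right and of the interaction include 0.

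The other genes of the pathway were described by role, from lists of known members. Of 4 tested genes for the ligand and its release, none was called lower and 1 was called higher over both sides. Of all tested genes 3.62% were called lower and 2.08% higher. Shh, the ligand of the lung epithelium, averaged 112.9 ± 12.9 CPM in knockout and 99.4 ± 2.57 CPM in wild-type libraries (adjusted p = 0.128 in edgeR). Scube2, a secreted protein that helps to release the lipid-bearing ligand, was called higher, with a log2 difference of 0.81 (SE 0.19 and adjusted p = 0.0201 in edgeR), at 4.28 ± 1.25 CPM in knockout and 2.42 ± 0.261 CPM in wild type, a call lost with left and right counts summed (adjusted p = 0.149). Disp1, the transporter that exports the ligand, and Hhat, the enzyme that attaches its palmitate, stood at 0.14 and 0.02 and were not called. Ihh, another ligand, held at most 7 counts per library and was not tested.

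Of the other genes of reception described here, none was called. Smo, which encodes Smoothened, averaged 656.3 ± 41.5 CPM in knockout and 669.1 ± 32.6 CPM in wild type, a log2 difference of -0.03 (SE 0.04, adjusted p = 0.782). The glypican Gpc3, a cell-surface protein that binds the ligand, stood at 0.02, Mosmo, which restrains Smoothened at the membrane, at 0.04, and the endocytic receptor Lrp2 at 0.32 (adjusted p = 0.0808). Of 11 tested genes of transduction, 0 were called by edgeR in either direction, with a median difference of 0.04 against 0.00 over all tested genes. Among them Gli2, the main activator of the family, averaged 217.2 ± 18.1 CPM in knockout and 210.8 ± 15.3 CPM in wild type (log2 difference 0.04, SE 0.06, adjusted p = 0.764). The ciliary kinesin Kif7 stood at 0.11, the ciliary receptor Gpr161 at -0.06 and the protein kinase A subunit Prkaca at 0.00.

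Set against genes of their own pathway within each library, both members separated the genotypes. Their levels alone already did so and the genes set against them were not called, so the ratios are no separate support. The ratio of Gli1 to Gli2 per length was 0.907 to 1.36 in the 6 knockout libraries (median 1.07) and 2.14 to 2.67 in the 6 wild-type libraries (median 2.31). Gli1 transcripts were therefore about as abundant as those of Gli2 in knockout lungs and the more abundant of the pair in every wild-type library. The ratio of Gli1 to Shh was 0.706 to 0.970 in knockout (median 0.864) and 1.93 to 2.27 in wild type (median 2.04). That of Hhip to Shh was 0.289 to 0.338 in knockout (median 0.312) and 0.514 to 0.697 in wild type (median 0.662). For Hhip to Gli2 the ranges lay closer, at 0.314 to 0.515 in knockout (median 0.376) and 0.575 to 0.898 in wild type (median 0.740).

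A wider list of reported Hedgehog targets had 14 tested genes, none of them called higher. The median difference of the list was -0.07, against 0.00 over all tested genes. The cell cycle genes Ccnd1, Ccnd2, Ccne1, Cdk6 and Foxm1 stood between -0.09 and 0.00 and were not called. Bcl2, which restrains cell death, stood at -0.16 (SE 0.05, adjusted p = 0.105), and Snai1 and Prdm1, both transcriptional repressors, at -0.07 and -0.27. The Wnt antagonist Sfrp1, the growth factor Igf2 and the mesenchymal ligand Wnt2 stood at 0.17, 0.19 and 0.01, none of them called. With libraries scaled to the mesenchyme markers, further genes of the list were called lower. Under that scaling 1424 of all 9519 tested genes were called lower over both sides, and their median moved to -0.12. Such calls were therefore not particular to this list.

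**Figure D4:**
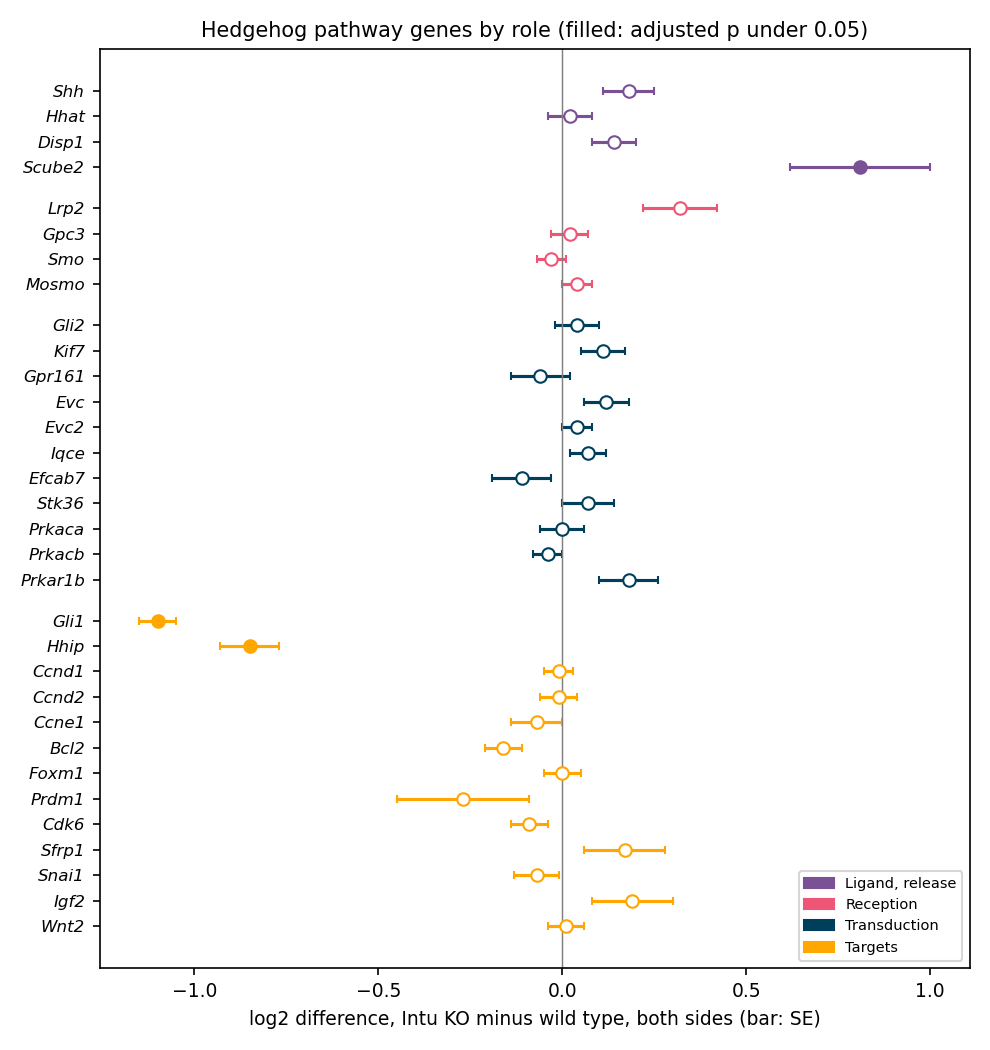
Log2 difference between Intu knockout and wild type over both sides (point) with its standard error (bar) for Hedgehog pathway genes, coloured by role. Filled points have an adjusted p under 0.05: Gli1 at -1.10 and Hhip at -0.85 lie to the left, Scube2 at 0.81 to the right, and the open points between -0.27 and 0.32.

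Markers of the cell types were read beside the members. The mesenchyme list, the tissue in which both genes are expressed, was not lower in knockout lungs. Of 10 tested genes, 1 was called higher (Col3a1, a fibrillar collagen, by 0.19) and none lower. The median difference of the list was 0.02, with 3 genes below 0. Its summed level was 9551.1 to 10838.5 CPM in knockout and 8995.8 to 9585.0 CPM in wild-type libraries. Most of that rise lay in collagen genes, Col3a1 among them (mean 3309 CPM in knockout and 2908 CPM in wild type). The sum is therefore not a measure of mesenchyme as a whole. With libraries scaled to the 10 genes, a scale in which collagens weigh most, the differences were -1.22 for Gli1 and -0.97 for Hhip. The median of all genes then moved to -0.12. Smooth muscle genes were lower as well, by unequal amounts. All 7 tested were called lower over both sides. The largest falls were in the actin Actg2 (-1.99) and the actin-binding Synpo2 (-2.04). Lmod1 (-0.92) and the myosin light chain Myl9 (-0.91) lay between Hhip and Gli1. Des (-0.29), Tpm2 (-0.3) and Cald1 (-0.25) fell less than either member. Cald1 was the most abundant of the 7, averaging 917.1 CPM in knockout and 1087 CPM in wild-type libraries. With each side tested alone, 4 were called lower in left lungs and 5 in right lungs. The summed level of the 7 was 1186 to 1453 CPM in knockout and 1813 to 2067 CPM in wild-type libraries. None was at 0 in every library. With left and right counts summed, 5 of the 7 were called. The part of smooth muscle cells in the fall of Gli1 and Hhip was not tested.

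In the other marker lists fewer genes were called over both sides, where 3.62% of all tested genes were called lower and 2.08% higher. Of 7 epithelial genes 1 was called higher (Elf3, 0.54), of 7 endothelial genes 1 higher (Sox18, 0.21), and of 4 mesothelial genes 1 lower (Upk3b, -0.32). Of 5 cardiac genes Actc1 was called lower (-1.70) and Myl2 higher (2.60), and the summed level of the 5 was 29.2 to 46.6 CPM in knockout and 61.2 to 94.3 CPM in wild-type libraries, also with no overlap. Actc1 alone made that difference, at 12.9 to 27.9 CPM in knockout and 47.1 to 72.2 CPM in wild-type libraries, and the other 4 genes summed to 16.0 to 31.7 CPM in knockout and 14.1 to 22.1 CPM in wild-type libraries. The part of heart tissue in the results was not tested. The 1 tested gene of the oesophagus and stomach list, Nkx6-1, was not called. The calls of Elf3, Sox18, Upk3b and Col3a1 were lost with left and right counts summed (adjusted p = 0.203, 0.164, 0.0884 and 0.179 in edgeR). Those of Actc1 and Myl2 were not read with the counts summed. The call of Sox18 was also lost with the mesenchyme scaling (log2 difference 0.09, adjusted p = 0.25 in edgeR). Col3a1 is itself a large part of that scale, which shrinks its difference by construction, so its value there (0.06, adjusted p = 0.343 in edgeR) is no separate check.

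Xist, the RNA of the inactive X chromosome of female cells, also moved with the genotype labels. It stood at 107.2 to 985.4 CPM in knockout and 1271 to 2269 CPM in wild-type libraries, a log2 difference of -1.83 (SE 0.47, adjusted p = 0.0357 in edgeR, 0.216 with left and right counts summed). Its part in the fall of Gli1 and Hhip was not tested. Within the knockout, Xist was lowest in number 1 and highest in number 2, at 117.6, 911.7 and 496.3 CPM in left and 107.2, 985.4 and 387.7 CPM in right lungs of numbers 1, 2 and 3. In the knockout, Hhip was in the same order of numbers on both sides and Gli1 on the left, while on the right Gli1 was highest in number 3. In wild-type lungs of numbers 1, 2 and 3, Xist stood at 1271.1, 1666.6 and 2167.4 CPM on the left and 1342.3, 2268.6 and 2018.2 CPM on the right. There Hhip was in the reverse order on the right and lowest in number 2 on the left. Gli1 was in the order of Xist on the left and highest in number 3 on the right.

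The genes next to the members on the chromosome that are given here were not called. The nearest tested genes to Gli1 on either side were Arhgap9, which overlaps its end, and R3hdm2, 38.4 kb away. Arhgap9 averaged 2.30 ± 0.311 CPM in knockout and 3.42 ± 0.725 CPM in wild type (log2 difference -0.57, adjusted p = 0.0768 in edgeR), and R3hdm2 stood at -0.05. The next ones, the methionyl-tRNA synthetase gene Mars and the muscle gene Stac3, stood at -0.03 and 0.59 (adjusted p = 0.811 and 0.0712). Around Hhip, the nearest tested genes on one side were Anapc10 and Abce1, at -0.04 and -0.07 (adjusted p = 0.802 and 0.362), and Frem3 on the other side stood at -0.48 (adjusted p = 0.405).

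The genes whose profiles over the 12 libraries lay closest to each member were found by the root mean square difference of centred log2 CPM, among 9075 genes with a mean of at least 1 CPM. Closest to Gli1 were the formin-family gene Fhdc1 (0.16), the sodium, potassium and calcium exchanger gene Slc24a3 (0.18), the smooth muscle leiomodin gene Lmod1, the junctophilin gene Jph2 and Hhip (0.19 each), against a median of 0.57 over all genes. Closest to Hhip were Jph2 (0.09), which encodes a protein that joins the surface membrane to calcium stores in muscle, Mfap3l (0.14), the growth factor gene Igf1 (0.15), Pcp4l1 (0.16) and the protocadherin gene Pcdh11x (0.16), against a median of 0.47. Gli1 ranked 12 in likeness to Hhip. All of these genes were called lower in knockout lungs, and a measure over both genotypes favours genes that differ between them as the members do. The call of Pcp4l1 was lost with left and right counts summed (adjusted p = 0.0668).

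**Figure D5:**
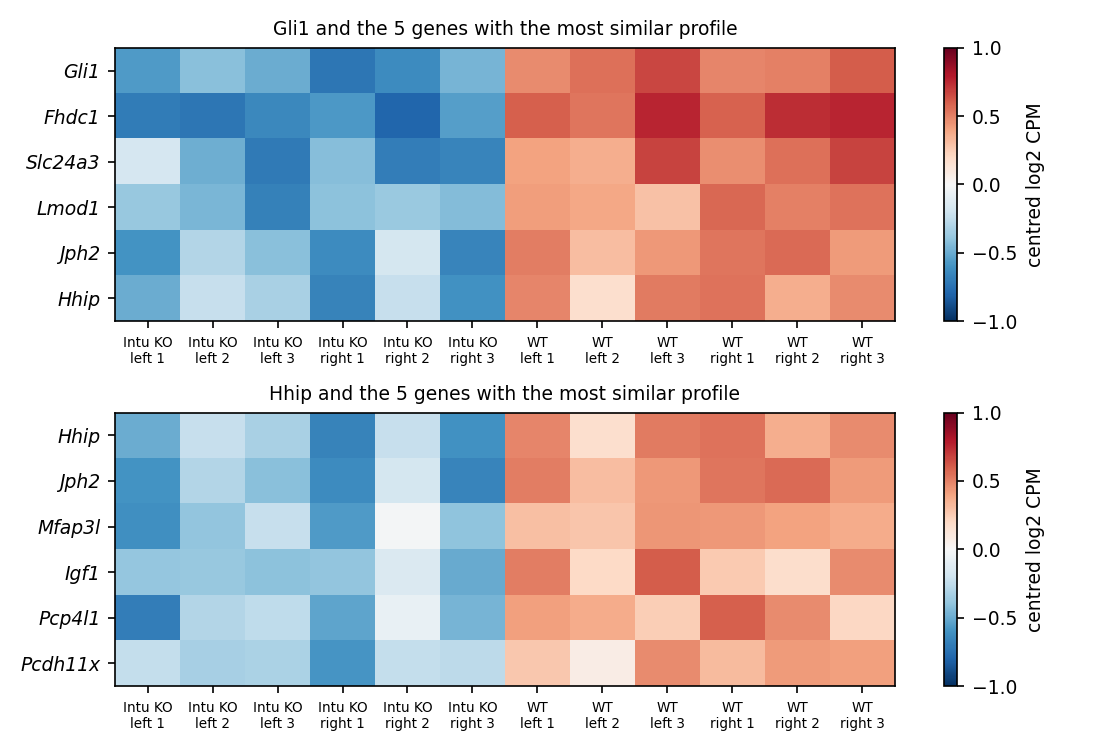
Centred log2 CPM (colour, blue low and red high) of Gli1 and Hhip and of the 5 genes with the most similar profile to each, in the 12 libraries with knockout to the left. Each gene is low in the 6 knockout and high in the 6 wild-type libraries.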

How the data were processed

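RNA was extracted from freshly dissected lungs with a column kit, per the labels' protocols. The submitters' processing notes name FastQC, HISAT2, featureCounts and the GRCm38 build. The sources used here give neither versions nor the use of strand. The authors deposited raw counts per gene. The table as used here ends within a row on chromosome 8; that 1 row was left out, and genes elsewhere, Ptch1 among them, were not analysed here. Symbols matched 99.5% of IDs.

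Genes passing filterByExpr (minimum count 10, total 15) were scaled with TMM factors (0.992 to 1.01) and tested with edgeR 4.0.16 in R 4.3.3 (glmQLFit, glmQLFTest, 1 fit of 12 libraries in 4 groups, 8 residual degrees of freedom). P-values were adjusted over 9519 genes by Benjamini-Hochberg, threshold 0.05. The procedure was tested on simulated data of 12 independent libraries. That setting lacks the pairing of left and right libraries, so it does not show the error rate under such pairing. Alternatives used DESeq2 1.42.0, limma 3.58.1, other scalings, no filter and libraries left out.

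Replicates of a group differed by more than counting noise, with a chi-square of 4.7 to 14.1 per degree of freedom. No label says that they are separate embryos, so a p-value covers the spread of these libraries alone. How much of that spread is technical was not tested. Deviations from group means correlated at 0.253 to 0.486 between left and right libraries of one number within a genotype, and at -0.121 to -0.0416 across genotypes, so numbers pair sides within a genotype.

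The members and lists were chosen with earlier results of these data known. Named were the members, Intu, list members, the nearest 2 tested genes on each side, the 5 closest profiles and called markers; some genes named by this rule are not reported here. Xist, the mesenchyme genes Tbx5 and Tcf21 and Foxa2 were named after their values were seen. Sequence is from RefSeq (GRCm38.p6).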

Additional observations from a re-analysis of the deposited data

How the results depend on the processing

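Gli1 and Hhip stayed called lower on the left, on the right and over both sides under each of 26 alternatives per comparison. Over both sides the log2 difference ranged from -1.22 to -1.05 for Gli1 and from -0.97 to -0.77 for Hhip. The largest adjusted p was 0.0484, for Hhip on the left without both wild-type libraries number 1 in edgeR. Left against right and the interaction were never called, also with the number within a genotype as a replicate block. In wild type the uncalled left against right difference of Gli1 turned to -0.02 without the wild-type left library number 3 (range over left-out libraries -0.02 to 0.08), and that of Hhip to 0.04 without the wild-type left library number 2 (range -0.13 to 0.04). The ratio of Gli1 to Hhip kept its sign, from -0.32 to -0.16.

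The count of all called genes moved more; the cause was not tested. Against 112 on the left, 144 on the right and 543 for both sides, it was 510, 595 and 1084 with no filter on low counts. DESeq2 called 193 on the left and 224 on the right. A replicate block by number across genotypes gave 177 on the left, and a fit of only the groups compared 49. For both sides, limma-voom with the replicate block as a random effect called 344, and left and right summed 141. With libraries scaled to the summed mesenchyme markers, an alternative added for these counts after seeing the data, it was 216, 306 and 1556. Leaving out 1 library at a time gave 45 to 137 on the left (45 without wild-type left number 1), 68 to 175 on the right (68 without knockout right number 3 or wild-type right number 2) and 354 to 569 for both (354 without wild-type right number 2). Leaving out a number on both sides gave 45 to 115 on the left, 48 to 168 on the right and 263 to 636 for both. In this set, knockout number 3 gave 58, 48 and 331, wild-type number 2 gave 59, 66 and 263, and wild-type number 1 gave 45 on the left. With 3 libraries a group, small differences between sides are not detectable.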
